A study of Mus musculus with 12 samples.

Results

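The neuronal nicotinic receptor subunits are encoded by Chrna2, Chrna3, Chrna4, Chrna5, Chrna6, Chrna7, Chrnb2, Chrnb3 and Chrnb4. These 9 genes, of 18193 genes measured, were taken by name, and every probe set with one of these names as its single gene symbol was used, 19 of 45037 probe sets in all. Where a gene had several probe sets, the one with the highest mean over all arrays stood for the gene and the others were set beside it. Messenger RNA of CD1 mouse superior cervical ganglion (SCG) was measured on 12 Affymetrix Mouse Genome arrays, with 4 biological replicates in each of 3 groups. The groups were freshly dissected SCG tissue, SCG cells grown in 3D polystyrene scaffolds, and SCG cells grown on a flat 2D dish. In the study the flat and the porous surface were both coated with collagen so that the cultures differed in their spatial arrangement, and the tissue stood in for the cells in the animal. The cultured cells were kept for 5 days, after collagenase digestion, in medium with serum and nerve growth factor. They were plated as single cells together with undissociated cell chunks, and all groups held the ganglion's glia and connective tissue cells as well as its neurons. The labels give an age of 21 days and a polystyrene dish for the 2D culture, whereas the methods describe neonatal mice and dishes with a glass bottom. All values below are expression levels on a log2 scale, so that a difference of 1 is a 2-fold change, and differences are tissue minus culture or 3D minus 2D.

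Nicotinic receptors are cation channels opened by acetylcholine, each built as a ring of subunits around a pore. In sympathetic ganglia they carry the fast signal from the preganglionic fibre to the postganglionic neuron. Chrna3 and Chrnb4 encode the pair of subunits that forms the main ganglionic receptor, Chrna5 and Chrnb2 encode subunits that join some of these receptors, and the Chrna7 subunit can form channels on its own. Chrna4, Chrna2, Chrna6 and Chrnb3 are best known from the brain, where Chrna4 pairs with Chrnb2 and the Chrna6 and Chrnb3 subunits occur in dopamine neurons. Chrna5, Chrna3 and Chrnb4 lie side by side on mouse chromosome 9, with the gene records of Chrna5 and Chrna3 overlapping, and Chrnb3 and Chrna6 are neighbours on chromosome 8.

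The promoters of the clustered genes and of Chrna7 are shown because these are the genes whose levels moved most between tissue and culture. Each run is 300 bases in RefSeq, build GRCm38.p6, covering 250 bases before and 50 bases after an annotated start, written along the gene's own strand. Capitals mark GC boxes (GGGCGG, or CCGCCC on the other strand) and CACCC boxes (GGGTGG, or CCACCC on the other strand), letters bound by proteins of the Sp family, which do not overlap each other here. Of the 9 genes, 6 matched a promoter. The Chrna5 promoter shown is that of the second of its 2 annotated starts.
Chrna5, chr9:54981238-54981537, plus strand: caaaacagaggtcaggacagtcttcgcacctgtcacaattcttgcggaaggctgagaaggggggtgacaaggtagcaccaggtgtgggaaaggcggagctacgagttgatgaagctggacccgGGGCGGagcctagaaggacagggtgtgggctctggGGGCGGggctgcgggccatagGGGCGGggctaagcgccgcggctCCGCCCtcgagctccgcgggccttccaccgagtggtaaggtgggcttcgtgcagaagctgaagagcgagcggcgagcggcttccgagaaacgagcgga
Chrna3, chr9:55026513-55026812, minus strand: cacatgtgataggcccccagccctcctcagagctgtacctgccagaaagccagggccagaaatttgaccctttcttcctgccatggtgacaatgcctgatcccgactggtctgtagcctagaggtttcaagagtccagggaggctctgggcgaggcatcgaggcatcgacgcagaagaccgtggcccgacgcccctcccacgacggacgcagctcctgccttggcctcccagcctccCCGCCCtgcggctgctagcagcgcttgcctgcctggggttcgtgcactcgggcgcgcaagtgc
Chrnb4, chr9:55048495-55048794, minus strand: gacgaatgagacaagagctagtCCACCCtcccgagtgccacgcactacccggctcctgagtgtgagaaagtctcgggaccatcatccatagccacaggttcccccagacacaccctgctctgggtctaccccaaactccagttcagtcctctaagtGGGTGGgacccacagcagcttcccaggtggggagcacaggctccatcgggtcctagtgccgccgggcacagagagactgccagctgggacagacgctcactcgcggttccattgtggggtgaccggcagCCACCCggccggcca
Chrna7, chr7:63212477-63212776, minus strand: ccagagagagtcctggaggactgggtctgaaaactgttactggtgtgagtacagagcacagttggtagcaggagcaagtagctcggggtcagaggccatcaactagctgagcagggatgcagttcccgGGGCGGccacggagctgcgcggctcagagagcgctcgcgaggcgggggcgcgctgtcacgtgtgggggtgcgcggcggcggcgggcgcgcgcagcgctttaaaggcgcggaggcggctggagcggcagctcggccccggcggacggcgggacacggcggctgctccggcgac

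The Chrna5 run held 4 GC boxes, the Chrna3 and Chrna7 runs held 1 GC box each, and the Chrnb4 run held no GC box but 3 CACCC boxes. At the first annotated start of Chrna5 neither motif was present and 41.3% of the bases were G or C, against 65.0% at the second start. Chrna4 had 3 GC boxes and Chrnb2 had 1 in the same window. Among all 32851 promoters in the same set, 35.7% held a GC box and 31.5% a CACCC box. None of the 7 subunit promoters held a TATA box (TATAAA, either strand) or a CCAAT box (CCAAT, either strand), which 13.6% and 37.4% of all promoters held. These matches describe the letters in the window only.

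Neuronal content has to be kept in view for every result below, since in bulk RNA fewer neurons and less RNA per neuron cannot be told apart. The mean of 28 pan-neuronal genes measured, of 30 listed, spanned 10.94 to 12.31 in SCG tissue, 10.44 to 11.16 in 3D cultured cells and 10.02 to 11.55 in 2D cultured cells. The lowest array of all was 2D replicate 4 at 10.02, where the other 2D arrays lay at 11.35 to 11.55, and 3D replicate 1 was the highest 3D array at 11.16 against 10.44 to 10.58. The mean of 16 sympathetic neuron genes measured, of 19 listed, spanned 10.72 to 11.99 in tissue, 9.50 to 10.30 in 3D and 9.39 to 10.87 in 2D. Of these 16, 12 were higher in tissue than in 3D (median difference 1.79) and 7 higher than in 2D, median 1.18 (limma, adjusted p under 0.05). Of the 28 pan-neuronal genes, 17 were higher in tissue than in 3D (median 1.21) and 7 higher than in 2D (median 0.775). No gene of either list was lower. Among all genes 15.5% were higher than in 3D and 9.87% higher than in 2D. The noradrenaline transporter Slc6a2 had 13.41 to 14.00 in tissue, 11.06 to 12.50 in 3D and 11.07 to 12.98 in 2D. Npy, which passed in neither comparison, had 11.54 to 13.90 in tissue, 12.69 to 13.36 in 3D and 12.79 to 14.15 in 2D. Insm1, a transcription factor of developing neuroendocrine cells, passed in both comparisons but lay low, at 4.08 to 5.32 on all arrays. The mean level of 8 macrophage genes was highest on 2D replicate 4 (8.64), against 6.42 to 7.76 on the other 2D arrays. The mean of 14 skeletal muscle genes was raised in tissue replicates 2 to 4, at 7.25 to 8.69. It was 5.76 in tissue replicate 1 and 5.45 to 5.72 in the cultures. Of the 14 genes, 7 were higher in tissue than in 3D and 4 higher than in 2D, and none was lower. Myl1 was lower in tissue replicates 2 and 3 (9.31 and 8.85) than in replicate 1 (11.59). Muscle subunit genes were not raised. The values of all probe sets were less spread out on tissue replicates 2 and 3 (SD 2.14 and 1.93) than on the other 10 arrays (2.31 to 2.42). No 2 arrays were duplicates.

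SCG tissue had more messenger RNA of 4 of the 9 subunits than 3D cultured cells, and none of the 9 was lower. Chrna7 was 25.4-fold higher, Chrna5 5.28-fold, Chrna3 4.24-fold and Chrnb4 3.75-fold. Chrna7 lay at 5.54 to 5.93 in 3D, below the median of all probe sets on those arrays (6.34 to 6.38). No detection calls were used here, and if Chrna7 was not above background there, its fold is a lower bound. Of all genes, 15.5% were higher in tissue by the same test and 20.1% lower (limma, Benjamini-Hochberg adjusted p under 0.05). Against 2D cultured cells 2 of the 9 passed, Chrna7 (14.3-fold) and Chrna5 (3.45-fold), where 9.87% of all genes were higher and 14.3% lower, and again no subunit was lower. All 9 differences were above 0 in both tissue comparisons, which share the tissue arrays; their medians were 0.57 against 3D and 0.73 against 2D, beside 0.03 for all genes in each. Between 3D and 2D cultured cells no subunit passed the test in either direction, none had an unadjusted p under 0.05, and only 0.0165% of all genes passed it.

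**Figure D1:**
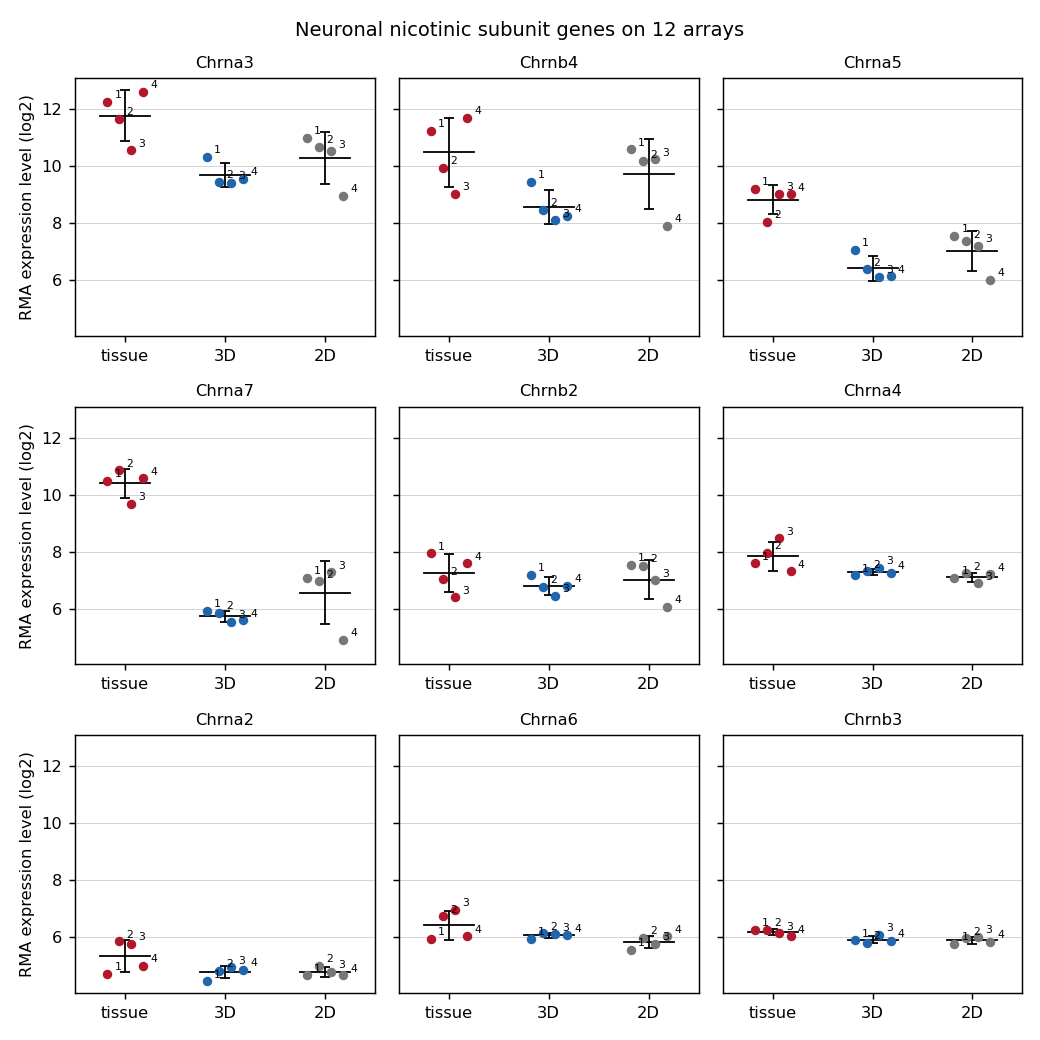
Expression level (RMA, log2) of the highest-mean probe set of each of the 9 subunit genes on 12 arrays, in SCG tissue, 3D and 2D cultured cells from left to right; numbers are replicates, bars the mean and SD of 4 arrays. Chrna7 in tissue (9.67 to 10.86) lies well above both cultures (4.91 to 7.28), while no array of Chrna2, Chrna6 or Chrnb3 exceeds 6.97.

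**Figure D2:**
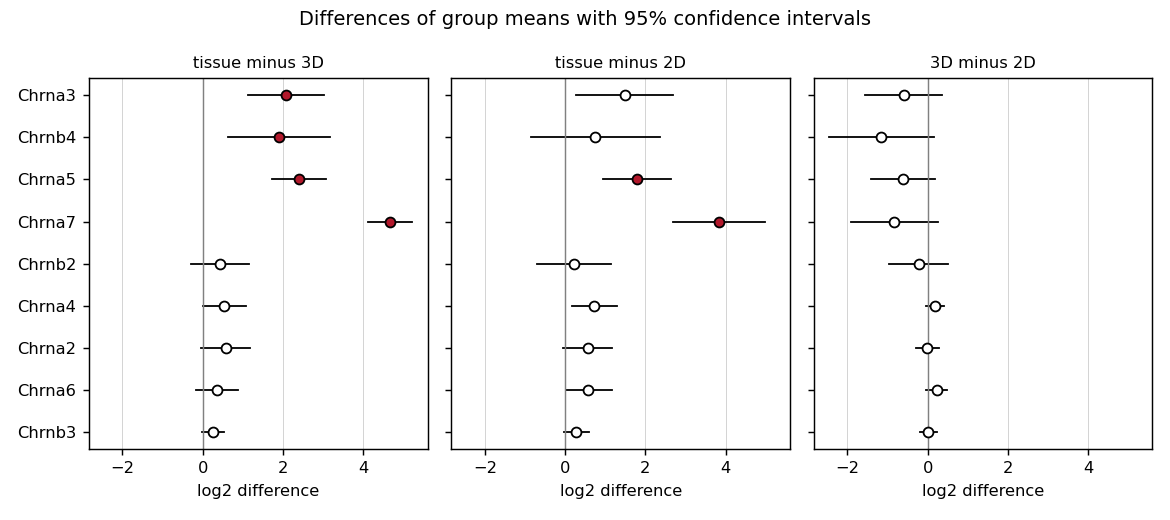
Log2 difference of group means for each subunit gene, tissue minus 3D, tissue minus 2D and 3D minus 2D from left to right, with 95% confidence intervals from limma (4 arrays a group); filled points have an adjusted p under 0.05. There are 4 filled points in the first panel, 2 in the second and none in the third.

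Chrna3, the alpha subunit of the ganglionic receptor, had levels of 12.26, 11.66, 10.56 and 12.60 in SCG tissue replicates 1 to 4. In 3D cultured cells it had 10.32, 9.45, 9.42 and 9.56. In 2D cultured cells it had 10.99, 10.69, 10.52 and 8.96. Every tissue array was above every 3D array, whereas the lowest tissue array, replicate 3, fell among the 2D arrays, and 2D replicate 4 was the lowest array of all. Chrna3 was higher in tissue than in 3D by 2.08 (SE 0.42, adjusted p = 0.00578). The difference from 2D was 1.48 (SE 0.53, adjusted p = 0.0745) and did not pass the test. It was 2.14 (adjusted p = 0.0385) without tissue replicates 2 and 3, and 1.04 (adjusted p = 0.156) without 2D replicate 4. Between 3D and 2D the difference was -0.60, with a 95% confidence interval of -1.56 to 0.36. A second bright probe set of Chrna3 gave 2.00 from 3D (adjusted p = 0.00429) and 1.58 from 2D (adjusted p = 0.0565). A dim one, at 4.45 to 6.52, gave 1.47 (adjusted p = 0.0012) and 1.37 (adjusted p = 0.00474). All 3 probe sets thus had the same sign, and the dim one passed both tissue comparisons. Its highest arrays were tissue replicates 2 and 3 (6.39 and 6.52), the arrays with the narrowest spread of values. On those arrays the bright probe sets had their lowest tissue levels.

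Chrnb4, the beta subunit that pairs with Chrna3, had levels of 11.25, 9.94, 9.04 and 11.70 in SCG tissue. In 3D cultured cells it had 9.45, 8.48, 8.11 and 8.27. In 2D cultured cells it had 10.59, 10.17, 10.24 and 7.91. The groups overlapped in each comparison: tissue replicate 3 lay below 3D replicate 1, and 3 of the 2D arrays lay above every 3D array while 2D replicate 4 lay below all of them. Chrnb4 was higher in tissue than in 3D by 1.91 (SE 0.56, adjusted p = 0.0307), and the exact permutation test over the 70 splits of 8 arrays gave p = 0.0571. Leaving out any 1 of 6 arrays, tissue replicate 1, 2 or 4 or 3D replicate 2, 3 or 4, ended this call (differences 1.50 to 2.09, adjusted p 0.0504 to 0.0823), and without tissue replicates 2 and 3 the difference was 2.90 (adjusted p = 0.000307). The tissue minus 2D difference was 0.75 (95% confidence interval -0.86 to 2.37, adjusted p = 0.437). It was 0.15 without 2D replicate 4 (adjusted p = 0.871), 0.35 without tissue replicate 4 (adjusted p = 0.724) and 1.75 without tissue replicates 2 and 3 (adjusted p = 0.142), not past the threshold in any of these. The other probe set of Chrnb4, at 6.22 to 8.81, gave 0.71 against 3D and 0.36 against 2D and passed in neither (adjusted p = 0.289 and 0.626).

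Chrna5, whose product joins other subunits and cannot bind acetylcholine without them, had levels of 9.21, 8.06, 9.03 and 9.01 in SCG tissue. In 3D cultured cells it had 7.06, 6.39, 6.12 and 6.14. In 2D cultured cells it had 7.57, 7.37, 7.21 and 6.01. No tissue array overlapped either culture, and 2D replicate 4 was again the lowest array. Chrna5 was higher in tissue than in 3D by 2.40 (SE 0.30, adjusted p = 0.000516) and higher than in 2D by 1.79 (SE 0.38, adjusted p = 0.012). The 3D minus 2D difference was -0.61 (95% confidence interval -1.41 to 0.18). The other Chrna5 probe set did not follow this pattern. It had 8.62, 6.81, 6.17 and 8.54 in tissue, 7.70, 6.43, 6.61 and 6.71 in 3D and 8.36, 8.18, 7.41 and 5.86 in 2D. The groups overlapped throughout on that probe set, and its differences were 0.67 from 3D and 0.08 from 2D (adjusted p = 0.366 for 3D, 0.938 for 2D). With the mean of both probe sets standing for the gene, the difference from 2D was 0.93 and no longer passed (adjusted p = 0.185). Which stretch of the transcript each probe set covers was not analysed here, and the Chrna5 and Chrna3 gene records overlap.

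Chrna7, the subunit of the highly calcium-permeable receptor that alpha-bungarotoxin blocks, showed the widest separation. Its levels were 10.49, 10.86, 9.67 and 10.57 in SCG tissue. In 3D cultured cells they were 5.93, 5.86, 5.54 and 5.60. In 2D cultured cells they were 7.09, 6.96, 7.28 and 4.91. Every tissue array was above every culture array by more than 2 log2 units, and 2D replicate 4 lay below all 3D arrays while the other 2D arrays lay above them. Tissue exceeded 3D by 4.67 (SE 0.25, adjusted p = 7.03e-06) and 2D by 3.84 (SE 0.51, adjusted p = 0.00175). Both calls held under each of 20 alternatives, with differences of 2.49 to 4.94 and 2.07 to 4.12. The 3D minus 2D difference was -0.83 (95% confidence interval -1.90 to 0.25, adjusted p = 0.547). Without 2D replicate 4 it was -1.38 and passed (adjusted p = 0.0181), so that 1 array decided this call. The other Chrna7 probe set stayed between 5.58 and 6.65 on every array and gave differences of 0.32 and 0.30 from the cultures that did not pass (adjusted p = 0.236 from 3D, 0.292 from 2D). The 2 probe sets of Chrna7 therefore disagreed in size, and the gene's difference rests on the brighter one.

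**Figure D3:**
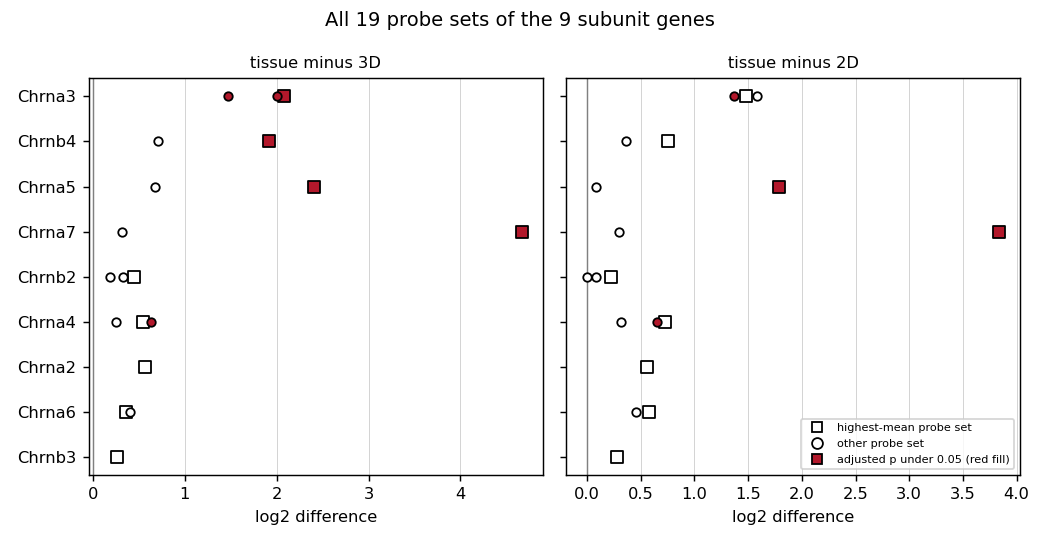
Log2 differences, tissue minus 3D at left and tissue minus 2D at right, for all 19 probe sets of the 9 subunit genes; squares are the highest-mean probe set of a gene, circles its other probe sets, and red fill an adjusted p under 0.05. The probe sets of Chrna3 lie near one another (1.47 to 2.08 against 3D), whereas those of Chrna7 (4.67 and 0.32) and Chrna5 (2.40 and 0.67) lie apart.

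Chrnb2, the beta subunit shared by brain and some ganglionic receptors, had levels of 7.94, 7.06, 6.40 and 7.59 in SCG tissue. In 3D cultured cells it had 7.20, 6.78, 6.45 and 6.80, and in 2D cultured cells 7.54, 7.50, 7.00 and 6.06. The groups overlapped in all 3 comparisons. Its differences were 0.44 from 3D (95% confidence interval -0.28 to 1.16, adjusted p = 0.298) and 0.22 from 2D (95% confidence interval -0.70 to 1.15, adjusted p = 0.698), so that tissue levels up to about 2-fold higher lie within both intervals. Without tissue replicate 3 the difference from 3D was 0.72 (adjusted p = 0.0425), and without tissue replicates 2 and 3 it was 0.96 (adjusted p = 0.00521). The difference from 2D was -0.10 without 2D replicate 4 and 0.50 at most with 1 array left out. The other 2 probe sets of Chrnb2 lay at 5.07 to 6.11 and passed in no comparison.

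Chrna4, the partner of Chrnb2 in the main brain receptor, had levels of 7.60, 7.97, 8.47 and 7.31 in SCG tissue. In 3D cultured cells it had 7.18, 7.31, 7.43 and 7.27, and in 2D cultured cells 7.09, 7.24, 6.90 and 7.21. Tissue was separate from 2D by a small margin and overlapped 3D, and its highest arrays were tissue replicates 2 and 3. It differed from 3D by 0.54 (adjusted p = 0.103) and from 2D by 0.73 (adjusted p = 0.0608), neither past the threshold. One of its other probe sets, at 4.89 to 5.93, passed with 0.63 from 3D (adjusted p = 0.0268) and 0.65 from 2D (adjusted p = 0.0394), and the remaining one did not. Without tissue replicates 2 and 3 the differences of the highest-mean probe set were 0.16 and 0.34, and without tissue replicate 4 they were 0.72 and 0.90 and passed (adjusted p = 0.0285 and 0.0246).

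Chrna2, Chrna6 and Chrnb3 stayed at low levels on every array, and whether they stood above background is not known. Chrna2 lay at 4.72 to 5.86 in tissue, 4.46 to 4.95 in 3D and 4.66 to 5.01 in 2D. Chrna6 lay at 5.95 to 6.97 in tissue, 5.95 to 6.14 in 3D and 5.56 to 6.04 in 2D. For both genes the highest arrays were tissue replicates 2 and 3, the arrays with the narrowest spread of values. Their differences from the cultures were 0.36 to 0.58 and not past the threshold, and without tissue replicates 2 and 3 they were 0.09 and 0.08 for Chrna2 and -0.07 and 0.16 for Chrna6. Without tissue replicate 1 Chrna2 passed in both comparisons (0.77 from 3D, adjusted p = 0.0364; 0.76 from 2D, adjusted p = 0.0495). Chrnb3 had 6.04 to 6.27 in tissue, 5.81 to 6.08 in 3D and 5.76 to 6.02 in 2D, with differences of 0.26 and 0.28 that did not pass (adjusted p = 0.131 and 0.153). The Chrnb3 tissue arrays were all above the 2D arrays. Non-overlap of this kind, tissue higher, held for 3 of the 9 genes against 3D and 4 of 9 against 2D, and for 18.3% and 15.3% of all genes.

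The order of the group means was tissue, 2D, 3D for Chrna3, Chrnb4, Chrna5, Chrna7 and Chrnb2. The neighbours 2D and 3D did not differ beyond their spread for any of them with all arrays in the fit. For Chrna3, Chrnb4 and Chrnb2 the neighbours tissue and 2D did not pass the test either. With 2D replicate 4, the array of lowest neuronal and highest macrophage level, and 3D replicate 1, the 3D array of highest neuronal level, both left out, 4 of the 9 genes were lower in 3D than in 2D. The differences were -2.05 for Chrnb4 (adjusted p = 0.00408), -1.44 for Chrna7 (adjusted p = 0.00504), -1.26 for Chrna3 (adjusted p = 0.00616) and -1.17 for Chrna5 (adjusted p = 0.00694). In the same fit 5.01% of all genes were lower in 3D. These arrays were chosen after their values were seen, and both were left out at once, so that the counts of 0 and 4 stand side by side as values. The mean pan-neuronal level differed by -0.40 between 3D and 2D with all arrays. On the arrays kept in this fit it was 10.44 to 10.58 in 3D and 11.35 to 11.55 in 2D, without overlap. Leaving out these arrays thus widened the neuronal difference as well.

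The subunits were also set against the neuronal genes of the same array. For this measure the mean log2 level of the 28 pan-neuronal genes was subtracted from the level of the subunit on each array; that mean was itself higher in tissue than in 3D by 1.10 and higher than in 2D by 0.70. Chrna7 averaged -1.37 ± 0.37 in tissue, -4.93 ± 0.25 in 3D and -4.51 ± 0.43 in 2D (SD, n = 4 each), differences of 3.56 and 3.14. Chrna5 averaged -2.94 ± 0.77 in tissue, -4.24 ± 0.17 in 3D and -4.03 ± 0.08 in 2D, differences of 1.30 and 1.09. Chrna3 averaged 0.00 ± 0.30 in tissue, -0.98 ± 0.09 in 3D and -0.78 ± 0.22 in 2D, differences of 0.98 and 0.78. For these 3 genes every tissue array was above every culture array on this scale, which used only the highest-mean probe set of each. Before subtraction, the other probe set of Chrna5 differed by 0.67 and 0.08, and that of Chrna7 by 0.32 and 0.30. Those differences lay below the 1.10 and 0.70 of the neuronal mean, so on this scale too both genes rest on 1 probe set. Both other probe sets of Chrna3 differed by more than the neuronal mean. The 28 genes themselves differed widely, from -1.38 (Nefm) to 2.65 (Syt1) against 3D and from -1.97 (Nefm) to 2.03 (Syt1) against 2D. Before subtraction, the differences of Chrna3 (2.08 and 1.48) and Chrna5 (2.40 and 1.79) lay within these ranges. Those of Chrna7 (4.67 and 3.84) lay above them. Chrnb4 overlapped in both comparisons, with differences of 0.80 and 0.05. Chrnb2 had negative differences, -0.66 from 3D and -0.48 from 2D. It averaged -4.52 ± 0.28 in tissue, -3.86 ± 0.14 in 3D and -4.04 ± 0.21 in 2D, with every tissue array below every 3D array. Before subtraction its differences were above 0 (0.44 and 0.22) but smaller than those of the neuronal mean. Any gene that changes little comes out negative on this scale, since the subtracted mean was higher in tissue. Of the 27 tests of this measure, 7 reached the smallest p that an exact two-sided permutation test of 4 against 4 can give (0.0286): Chrna3, Chrna5 and Chrna7 in both tissue comparisons and Chrnb2 against 3D. None passed after Benjamini-Hochberg adjustment (smallest adjusted p = 0.11). Since the 7 tests at the smallest possible p already had this value, not passing here says little about the size of a difference. Chrna2, Chrna4, Chrna6 and Chrnb3 had differences of -0.84 to -0.54 from 3D and -0.42 to 0.03 from 2D on this scale, and none of their p-values was below 0.0571. The sizes depended on the genes subtracted. With the mean of the 16 sympathetic neuron genes in their place, the differences from 3D and from 2D were 2.99 and 2.79 for Chrna7, 0.73 and 0.74 for Chrna5, 0.41 and 0.43 for Chrna3, 0.23 and -0.29 for Chrnb4, and -1.23 and -0.82 for Chrnb2 (exact permutation tests, adjusted p 0.193 to 0.741).

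**Figure D4:**
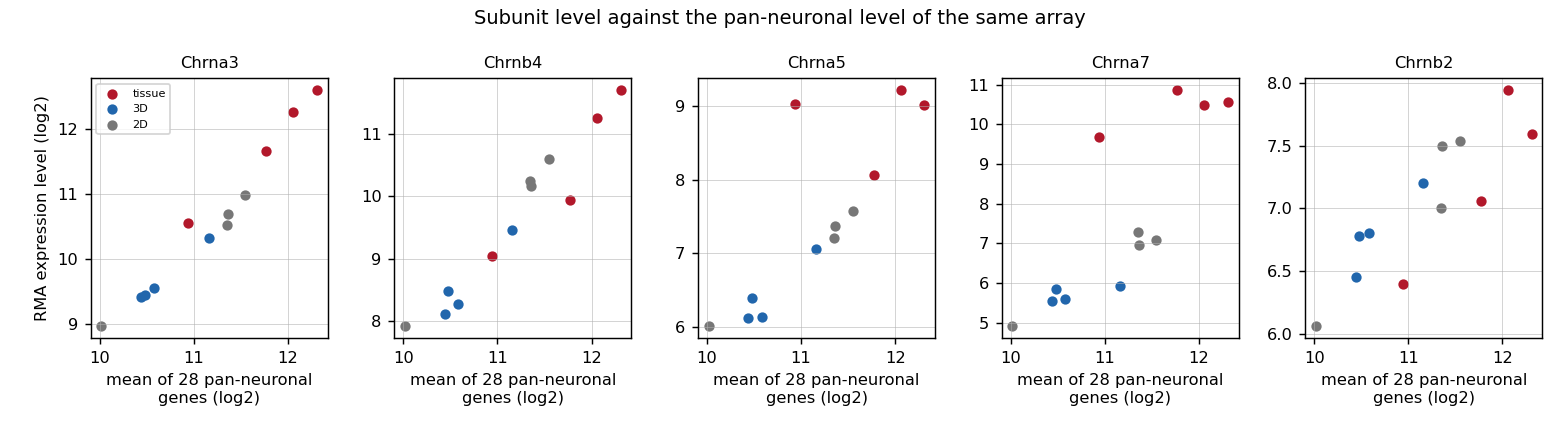
Expression level (log2) of 5 subunit genes against the mean level of 28 pan-neuronal genes (log2) on the same array; each point is 1 of 12 arrays, red for tissue, blue for 3D and grey for 2D, and the vertical scale differs between panels. Chrna3 and Chrnb4 run along with the neuronal mean, while the tissue arrays of Chrna7 (9.67 to 10.86) stand above all culture arrays, with only tissue replicate 3 (neuronal mean 10.94) inside the neuronal range of the cultures (10.02 to 11.55).

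Across the 12 arrays Chrna3 varied with the pan-neuronal mean at Pearson r = 0.981, Chrnb4 at 0.969, Chrnb2 at 0.866, and Chrna5 and Chrna7 at 0.822 each. Within groups, as deviations from the group means, r was 0.993 for Chrna3, 0.975 for Chrnb4, 0.928 for Chrnb2, 0.867 for Chrna7 and 0.671 for Chrna5. Chrna3 and Chrnb4 varied together at r = 0.938, and at 0.982 within groups. Chrna4 and Chrna6 varied together at 0.923 (0.876 within groups) and ran against Chrna3 within groups, at -0.737 and -0.786. These are descriptions over 12 arrays that share the group differences and the neuronal content of each sample. Within tissue, Chrna4 and Chrna6 were highest and Chrna3 lowest on replicates 2 and 3, the arrays with the narrowest spread of values. The part of that spread in the correlations was not tested.

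The genes most like Chrna3 over the 12 arrays, among 13108 genes with a mean level of at least 6, were Wdr7 (r = 0.997), Apba1 (0.995), Dmkn (0.993), Rab3c (0.993) and Pcbd1 (0.992). Apba1 encodes an adaptor of the synaptic vesicle release machinery, Rab3c a small GTPase of secretory vesicles, and Pcbd1 an enzyme that recycles the pterin cofactor of tyrosine hydroxylase. The genes most like Chrnb4 were Mllt11 (0.984), Pde9a (0.982), Gabbr1 (0.979), Chgb (0.976) and Serpini1 (0.975). Pde9a breaks down cyclic GMP, Gabbr1 is a subunit of the metabotropic GABA receptor, Chgb is a granin of dense-core vesicles and also one of the pan-neuronal genes listed, and Serpini1 is the protease inhibitor neuroserpin. Within groups r was 0.984 to 0.992 for the first set and 0.965 to 0.988 for the second.

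Proteins that fold, carry or bind nicotinic receptors were higher in SCG tissue for 6 of 12 genes listed, against 3D and against 2D alike, and none was lower; of all genes 15.5% and 9.87% were higher. Tmem35a, the chaperone NACHO that Chrna7 receptors need to reach the surface, had 10.10, 10.44, 9.97 and 10.08 in tissue, 8.30, 7.21, 7.09 and 7.65 in 3D and 9.24, 8.94, 8.02 and 7.59 in 2D. It was 2.58 above 3D (adjusted p = 0.000183) and 1.70 above 2D (adjusted p = 0.0107), with no overlap. Ric3, a second chaperone of Chrna7, had 6.58, 6.87, 7.18 and 6.82 in tissue, 5.84, 6.23, 6.05 and 5.80 in 3D and 5.95, 6.09, 6.36 and 5.70 in 2D, and was higher by 0.88 (adjusted p = 0.00435) and 0.84 (adjusted p = 0.017). Both chaperones were thus separate between tissue and each culture. Vsnl1, a calcium sensor that binds the Chrna4 subunit, was higher by 3.56 and 3.23, at 7.36 to 8.18 in tissue, 3.96 to 4.62 in 3D and 3.88 to 5.16 in 2D. The culture levels of Vsnl1 were low enough that these differences may be lower bounds. The GPI-anchored Ly6 proteins Lynx1, which damps receptor currents, and Lypd6 were higher by 1.59 and 1.49 and by 1.75 and 1.49, and Lypd6b by 0.64 and 0.70. Lypd6b lost its call under 4 of 19 alternatives against 3D and 6 of 19 against 2D, and Ric3 lost its call against 2D under 5 of 20. Ubxn2a, Ly6e, Ly6h, Lypd1, Slurp1 and Psca did not pass in either comparison. The list's median difference was 0.49 against 3D and 0.51 against 2D. Without tissue replicates 2 and 3, 6 of the 12 were higher against 3D and 3 against 2D, where Tmem35a, Ric3 and Lypd6b no longer passed, beside 22.7% and 10.1% of all genes.

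**Figure D5:**
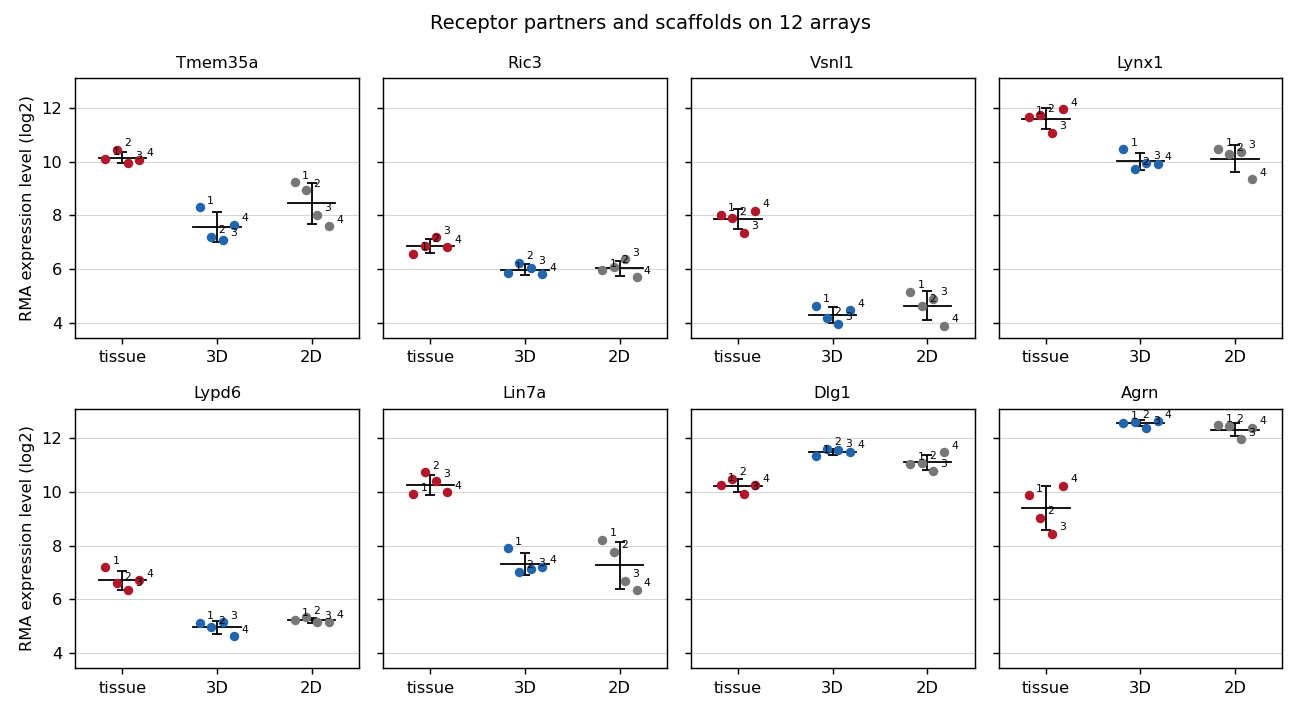
Expression level (RMA, log2) of 5 receptor chaperones and binding proteins (Tmem35a, Ric3, Vsnl1, Lynx1, Lypd6), 2 scaffold proteins (Lin7a, Dlg1) and agrin (Agrn) on 12 arrays, in SCG tissue, 3D and 2D cultured cells from left to right; numbers are replicates, bars the mean and SD of 4 arrays. Agrn and Dlg1 are lower in tissue than in the cultures, and the other 6 genes are higher.

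Scaffold proteins of the postsynaptic membrane were divided. The 8 genes listed include Apc, whose probe sets disagreed in sign. Of the other 7, 4 were higher in tissue than in 3D and 2 lower (15.5% and 20.1% of all genes), and 3 were higher than in 2D and 1 lower (9.87% and 14.3% of all genes). Lin7a, which links membrane proteins in a PDZ complex, had 9.92, 10.73, 10.42 and 9.99 in tissue, 7.90, 7.03, 7.12 and 7.20 in 3D and 8.22, 7.77, 6.69 and 6.36 in 2D, with differences of 2.95 (adjusted p = 7.09e-05) and 3.00 (adjusted p = 0.00189). Its relative Lin7b was higher by 0.92 and 0.84, and the PSD-95 gene Dlg4 by 0.77 and 0.73, the last no longer past the threshold under 11 of 20 alternatives. Dlg2 (PSD-93), which clusters nicotinic receptors at synapses of mouse ganglion neurons, was higher than in 3D by 2.15 (adjusted p = 0.00176), and its difference from 2D was 1.61 (adjusted p = 0.0589). Dlg1 (SAP97) was lower in tissue, by a difference of -1.26 from 3D (adjusted p = 0.000431) and of -0.87 from 2D (adjusted p = 0.0146), and the call against 2D was lost after cyclic loess or centring. Lin7c was lower in tissue than in 3D (-1.94, adjusted p = 0.0105). For Apc, a microtubule-linked organiser of nicotinic synapses, the highest-mean probe set was higher in tissue by 1.67 and 1.79, but the probe set of highest SD gave -1.98 and -1.13, so that no direction is given for the gene. The median of the 7 genes was 0.77 against 3D and 0.73 against 2D, and no gene of the list passed between 3D and 2D.

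Of 6 genes of the neuromuscular junction, Agrn, the secreted clustering factor agrin, was lower in tissue, with differences of -3.17 from 3D (adjusted p = 0.000301) and -2.94 from 2D (adjusted p = 0.00132). It had 9.88, 9.03, 8.43 and 10.23 in tissue, 12.59, 12.61, 12.40 and 12.64 in 3D and 12.49, 12.47, 11.96 and 12.40 in 2D, with no overlap. Against 3D, Dok7, an adaptor of the receptor kinase MuSK, was higher by 0.92 (adjusted p = 0.00251) and the agrin receptor Lrp4 was lower (-0.89, adjusted p = 0.0213). Lrp4 lost its call under 8 of 20 alternatives, and Dok7 under 1 of 20, its probe set of highest SD. Neither passed against 2D, and Musk, Rapsn and Colq passed in no comparison. Muscle and sensory nicotinic subunits (Chrna1, Chrnb1, Chrnd, Chrne, Chrng and Chrna9) lay between 5.08 and 6.92 on all arrays, and 0 of these 6 passed in any comparison with the deposited scaling. After cyclic loess 2 of the 6 were lower against 3D and 1 against 2D, where 18.7% and 13.1% of all genes were lower.

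Of 7 factors known to act on nicotinic subunit promoters, 5 were lower in tissue than in 3D and 4 lower than in 2D, where 20.1% and 14.3% of all genes were lower, and none was higher. Sp1, which binds GC and CACCC boxes such as those in the runs above, had 10.08, 9.75, 8.96 and 10.05 in tissue, 10.68, 10.72, 10.82 and 10.83 in 3D and 10.46, 10.75, 10.52 and 10.71 in 2D. It was lower in tissue than in 3D (-1.05, adjusted p = 0.0103) and than in 2D (-0.90, adjusted p = 0.0338), the call against 2D being lost under 8 of 20 alternatives. Sp3 was lower in tissue than in 3D (-1.17, adjusted p = 0.0329) and lost that call under 10 of 20 alternatives. Sox10, which is also a glial marker, had differences of -1.68 from 3D and -1.30 from 2D, the immediate early factor Egr1 -2.74 and -2.50, and Tfap2a -2.48 and -2.83, all past the threshold. Against 2D the call was lost under 4 of 20 alternatives for Sox10 and 2 of 20 for Egr1, and under none for Tfap2a. Phox2a, which specifies noradrenergic neurons, and Pou4f1 did not pass in any comparison. The 8 glial genes measured, Sox10 among them, averaged 10.37 to 11.27 in tissue, 10.71 to 10.78 in 3D and 10.55 to 11.16 in 2D. That average covers genes of opposite direction. Against 3D, Kcnj10 (2.07) and Mbp (1.69) were higher in tissue, and Sox10 (-1.68) and Cdh19 (-1.93) lower. Of all genes 15.5% were higher and 20.1% lower. The part of the cell mixture in the differences of the promoter factors was not tested.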

How the data were processed

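Total RNA was labelled and hybridised to Affymetrix Mouse Genome arrays. The authors deposited log2 expression values made with RMA in Affymetrix Expression Console, which adjusts background, quantile-normalises and summarises the probes of each probe set; its version is not given in any source used here. Quantile normalization hides a shift shared by most genes. Of the probe sets, 64 controls were left out and 45037 tested; by the platform annotation 34945 had 1 gene symbol, 932 several and 9160 none. Each pair of groups (8 arrays) was fitted with limma 3.58.1 in R 4.3.3 (lmFit, eBayes), with p-values adjusted by Benjamini-Hochberg over the 45037 probe sets and a threshold of 0.05. The code was tested on simulated data. For single values an exact two-sided permutation test over 70 splits was used. The number of arrays limits the precision. Batches were not tested, since neither scanner files nor scan dates were used, and the labels do not say which animals each biological replicate came from.

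The 9 subunits were named in every comparison. Of the related lists, the 4 genes of smallest adjusted p in each comparison were named; others were named after their values were seen. For the marker lists the genes of highest mean were eligible. The subunits and lists were chosen with earlier results of these data known. Alternatives were the samples in the fit, array weights, prior, a filter on dim probe sets (kept if 4 or more arrays reached a level of 6), cyclic loess, centring on probe sets with a mean of at least 6, a replicate block, the choice of probe set, the methods' t-test, a 2-fold minimum and leaving out arrays.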

Additional observations from a re-analysis of the deposited data

Results flagged for a closer look

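Of 57 sets of 4 arrays searched (19 probe sets in 3 groups), 3 held an array far from the other 3 of its group; chance gives about 1 in 20. Chrna7 on 2D replicate 4 was at 4.91, the other 2D arrays at 6.96 to 7.28. Chrnb4 on 2D replicate 4 was at 7.91, the others at 10.17 to 10.59. Chrna3 on 3D replicate 1 was at 10.32, the others at 9.42 to 9.56. The mean of the pan-neuronal genes was 10.02 on 2D replicate 4 (11.35 to 11.55 on the other 2D arrays) and 11.16 on 3D replicate 1 (10.44 to 10.58 on the other 3D arrays).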

How the results depend on the processing

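The count of subunits higher in tissue than in 3D was 4 and stayed between 3 and 6 under all alternatives (3 to 5 with 1 array left out). The share of all genes higher ranged from 9.99% to 22.7% over these alternatives, the 2-fold minimum not included. Against 2D the count was 2, and it was 5 in 1 fit of all 12 arrays and 4 after cyclic loess, after centring and with the methods' t-test without adjustment (2 to 3 with 1 array left out). The share of all genes higher than in 2D rose too, from 9.87% to 18% in 1 fit of all 12 arrays. It was 14.3% after cyclic loess, 16.6% after centring and 17.2% with the unadjusted t-test. In 3D against 2D the count lower was 0, and it was 1 without 2D replicate 4 (0 to 1 over single arrays) and 4 without 2D replicate 4 and 3D replicate 1, an alternative chosen after seeing the data, as was leaving out tissue replicates 2 and 3. Of all genes 0.335% were lower in 3D without 2D replicate 4, and 5.01% without both arrays. The causes were not tested. Counts with the replicate block were 4, 2 and 0, as without it. Deviations of same-numbered arrays correlated at -0.0669 to 0.407 over the 3 comparisons, not above 0.1 in every pair, so the numbers were not taken as pairs, and the labels say nothing of pairing.

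Chrna7 and Chrna5 against 3D, Chrna3 against 3D and Chrna7 against 2D passed under all 20 alternatives. Chrnb4 against 3D passed under 12 of 20; averaged over its probe sets it was 1.31 (adjusted p = 0.0775), and it had an adjusted p of 0.0879 with the methods' t-test. Chrna3 against 2D passed under 7 of 20 (adjusted p 0.00987 to 0.156 over all). Centring moved the median of all genes to 0.308 against 3D and 0.31 against 2D, and the share higher among genes called from 43.5% to 60.6% and from 40.9% to 61.6% (52.3% in both after cyclic loess). Of 537 recomputed differences of single subunits 488 kept direction and side of the threshold, 30 newly passed, 9 no longer passed and 10 changed sign; of 297 values relative to neuronal genes 278 kept both and 19 changed sign. No called value changed sign. Chrna6 against 3D was -0.01 with array weights and -0.07 without tissue replicates 2 and 3. Chrna2 in 3D against 2D was 0.00 after centring, 0.06 without 2D replicate 4 and 3D replicate 1, and -0.07 to 0.10 over single arrays; Chrnb3 there ranged over -0.03 to 0.06, and Chrnb2 against 2D over -0.10 to 0.50. Relative to neuronal genes in tissue against 2D, Chrna4 was -0.32 with sympathetic genes as the base, -0.31 after cyclic loess and -0.46 to 0.41 over single arrays, Chrnb4 was -0.29 with sympathetic genes and -0.20 to 0.26 over single arrays, Chrna2 ranged over -0.57 to 0.17 and Chrna6 over -0.58 to 0.30; in 3D against 2D, Chrna3 and Chrna5 were 0.02 and 0.01 with sympathetic genes. Signal over background is not known here, which limits the genes of low level.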
